A study of Mus musculus with 3 samples.

Results

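Wnt pathway genes that act outside the cell or at its surface were described in healing mouse skin, together with 4 genes that the pathway itself switches on. The members were chosen by symbol alone, as all Wnt, Fzd, Sfrp, Dkk and Rspo genes with a number in their name plus Frzb, Wif1, Lrp5, Lrp6, Axin2, Nkd1, Nkd2 and Notum. This gave 49 of the 19938 genes that could be named on the array, namely 19 ligands, 4 R-spondin agonists, 12 receptors, 10 secreted antagonists and 4 feedback targets. C57Bl/6 mice aged 6 weeks, of an inbred laboratory strain with no genetic change named, received back skin wounds of 1.5 cm2 through epidermis and dermis, and no further treatment is named. Healing tissue was taken on day 10, day 12 or day 14, and unwounded skin and follicles at the margin were avoided, per the labels. Tissue of 3 mice was pooled for each day and measured on 1 array, so no spread between animals can be given, no test was made, and each difference compares single pools. No unwounded skin was analysed here.

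Wnt proteins are secreted, lipid-modified ligands that bind Frizzled receptors, and for the beta-catenin branch also the co-receptors Lrp5 and Lrp6. Beta-catenin is then spared from breakdown, enters the nucleus and acts with Tcf and Lef factors on target genes, several of which damp the pathway again. In skin this pathway is known for starting hair follicles in the embryo, for the growth phase of the hair cycle, and for its part in the new follicles that can form in the centre of large wounds.

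Values are log2 expression per gene, so that a difference of 1 is a 2-fold difference. The array medians lay between 7.53 and 7.55. Levels of different genes are not compared, since probe sets differ in brightness. The probe-to-probe error was taken from 777 genes with a pair of probe sets, whose differences between day 14 and day 10 had a robust standard deviation of 0.070 on this scale, with a gap between the probe sets of 0.48 at the 95th percentile. Of the 49 members, 7 (14.3%) had 3 identical values, against 25.7% of all named genes, and such ties are a property of the deposited summary values rather than a precise measurement of no difference. A member is called dim where its highest value lay under 6.53, the 95th percentile of the highest values of 1015 olfactory receptor genes, whose transcripts are mostly not made in skin. The dim members were the ligands Wnt1, Wnt7a, Wnt8a and Wnt8b, the agonist Rspo2, and the antagonists Dkk1, Frzb and Wif1. The files give no detection calls, so this mark is a description only. The tissue label was set against marker genes. The basal keratin gene Krt14 stood at 13.30, 13.32 and 13.31 on days 10, 12 and 14, and the dermal collagen gene Col1a1 at 13.48, 13.48 and 13.49.

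Between day 10 and day 14, genes of the same role differed in both directions. The secreted antagonist Sfrp4 and the ligand Wnt3 were more than 2-fold higher on day 14 than on day 10, whereas the ligand Wnt2b was more than 2-fold lower. The ligands ranged from −1.95 to 1.12, 1 of 12 receptors reached 1.5-fold, and all 4 feedback targets were somewhat higher on day 14, led by Axin2. On day 14 against day 10, 2 members were at least 2-fold higher, beside 1.25% of all named genes, and 1 was at least 2-fold lower, beside 0.512%. At 1.5-fold these were 4 members higher (background 3.11%) and 3 lower (background 2.98%). By any amount, 30 members were higher (background 34.9%) and 12 lower (background 35.6%). On day 12 against day 10, Sfrp4 was the 1 member at least 2-fold higher (background 0.787%) and Wnt2b the 1 member at least 2-fold lower (background 0.13%). At 1.5-fold, Wnt3 and Wnt2 joined Sfrp4 to make 3 higher (background 2.33%), and Sfrp1 joined Wnt2b to make 2 lower (background 0.958%). On day 14 against day 12, none of the 49 members reached 2-fold, beside 0.0552% of genes higher and 0.196% lower. At 1.5-fold, Wnt2b was the 1 member lower (background 0.712%) and 0 were higher (background 0.271%), Sfrp4 lying just short of the mark at 0.581. With so few members past 2-fold, these counts are read only as a description.

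**Figure D1:**
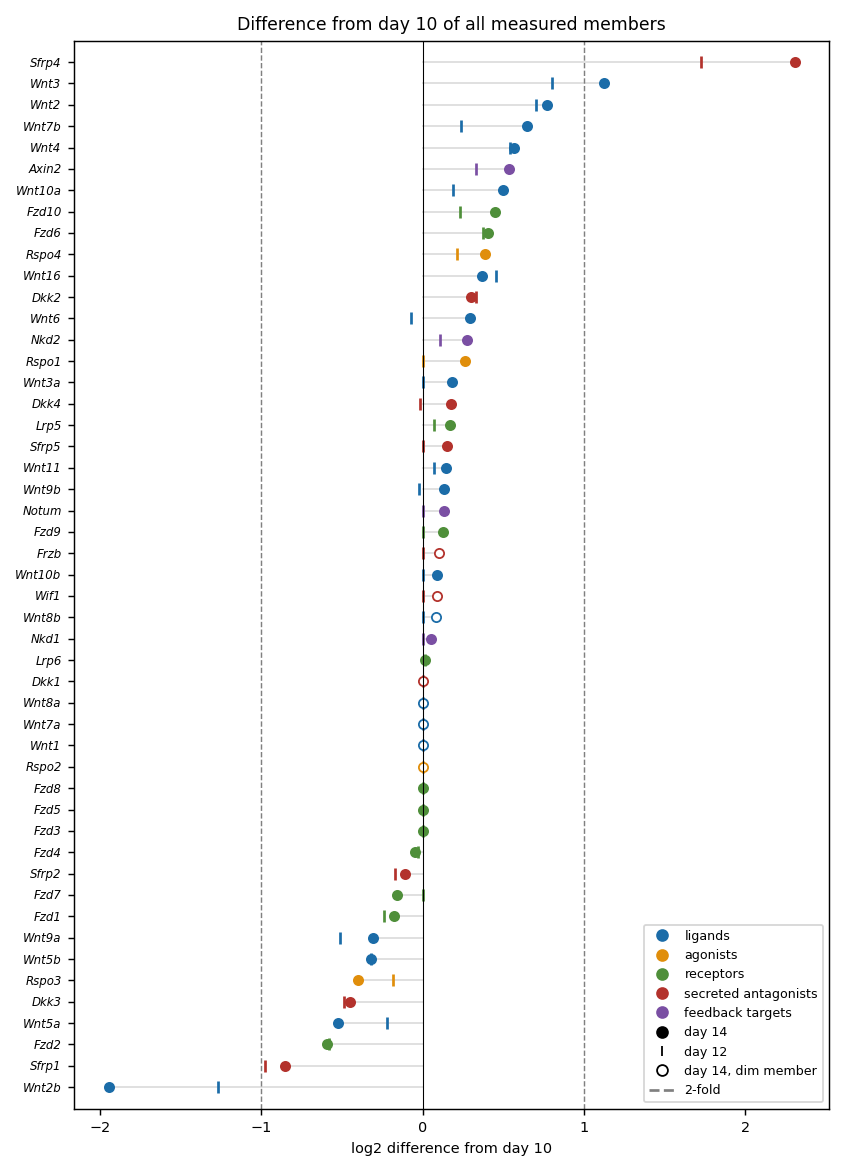
Log2 difference from day 10 for all 49 members, ordered by the day 14 value, with day 14 as circles and day 12 as ticks, coloured by role, and the 8 dim members as open circles. Dashed lines mark 2-fold, which Sfrp4 and Wnt3 pass on the higher side and Wnt2b on the lower side on day 14.

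Of the 19 ligands, 12 were higher, 4 lower and 3 exactly equal on day 14 against day 10, with a median difference of 0.13. Of all named genes, 34.9% were higher, 35.6% lower and 29.5% equal, and their median was 0.00. Wnt2b, a ligand of the beta-catenin branch, read 10.23, 8.96 and 8.28 on days 10, 12 and 14. It was lower on each later day, with 2.41-fold between days 10 and 12 and 1.60-fold between days 12 and 14, or 3.85-fold in all. Wnt3, another beta-catenin ligand, known for effects on hair growth when raised in skin, ran the other way, at 7.98, then 8.79, then 9.11. It was 2.18-fold higher on day 14 than on day 10, and 71.4% of that log2 difference lay between days 10 and 12. These genes are the ends of the ligands' range, with log2 differences of −1.95 for Wnt2b and 1.12 for Wnt3.

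The sequences before the start sites of these oppositely placed ligands are shown, since beta-catenin acts through Tcf and Lef factors that bind a short motif. Windows of 250 bases before the annotated start, from RefSeq on GRCm38.p6, were kept for 32 of the 49 members, in 35 windows. Member windows on a single chromosome had been left out before this count, so a member without a window here need not lack one. The window of Wnt2b lies at chr3:104961710-104961959, minus strand, and that of Wnt3 at chr11:103773925-103774174, plus strand. In the sequences printed here, capitals mark the letters CTTTGNN, with A or T at both N places, on either strand. This is the core of the Tcf and Lef motif.
Wnt2b: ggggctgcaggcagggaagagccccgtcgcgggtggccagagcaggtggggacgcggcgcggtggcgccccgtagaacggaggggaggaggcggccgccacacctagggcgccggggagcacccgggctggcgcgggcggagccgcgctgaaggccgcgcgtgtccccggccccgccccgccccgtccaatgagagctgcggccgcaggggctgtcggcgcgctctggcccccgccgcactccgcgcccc
Wnt3: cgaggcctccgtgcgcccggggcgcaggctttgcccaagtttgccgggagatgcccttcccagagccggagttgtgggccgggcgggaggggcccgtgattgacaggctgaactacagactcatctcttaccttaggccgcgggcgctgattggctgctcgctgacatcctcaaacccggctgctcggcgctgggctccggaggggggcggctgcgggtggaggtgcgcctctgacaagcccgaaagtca
Neither window held any of these letters, so neither carries capitals, and this says nothing on whether a factor binds elsewhere. Both windows were rich in CG pairs, with 36 in Wnt2b and 22 in Wnt3. The median was 22 over the member windows and 6 over all 32851 windows of the table.

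Wnt2, a beta-catenin ligand, read 7.19, 7.89 and 7.96 on days 10, 12 and 14, and was thus 1.70-fold higher at the end, with 91.3% of the log2 difference in the first step. Wnt7b, an epidermal ligand, was 7.65, 7.89 and 8.30 on days 10, 12 and 14. It was 1.57-fold higher on day 14 than on day 10, and 36.6% of its log2 difference lay in the first step. Wnt5a, known mainly for signalling without beta-catenin, was 10.94, 10.72 and 10.41 on the same days, lower on each later day and 1.44-fold lower in all. Wnt10b, a ligand of hair placodes, was 7.28, 7.28 and 7.37, so that days 10 and 12 were tied and day 14 was higher by 0.09.

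Wnt4, an epidermal and mesenchymal ligand, was the only member with more than 1 probe set. The first probe set read 9.15, 9.33 and 9.31 on days 10, 12 and 14, and the second read 9.41, 10.32 and 10.39. Both were higher on day 12 than on day 10, by 0.18 and by 0.91, and the gap between them was larger than in 99.2% of genes with a pair of probe sets. Their average gave a difference of 0.56 between days 14 and 10, and the brighter probe set alone gave 0.97. The size of the difference for Wnt4 therefore depended on which probe set was read.

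The remaining ligands differed by less than 1.5-fold over the days. Wnt10a, whose human counterpart is altered in ectodermal dysplasias, was higher on each later day and by 0.50 in all. Wnt16 was higher on day 14 than on day 10 by 0.37 and Wnt6 by 0.29. Wnt3a, Wnt11 and Wnt9b were higher by 0.18, 0.15 and 0.13. Wnt9a and Wnt5b were lower on day 14, by −0.31 and −0.32 on the log2 scale. Wnt9a was lowest on day 12, at −0.51 from day 10. Of the 4 dim ligands, Wnt1, Wnt7a and Wnt8a had the same value on all arrays and Wnt8b differed by 0.08.

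Wnt genes lie next to each other at several places in the genome, and 4 pairs of members were neighbours among protein-coding genes of the GRCm38.p6 table. Neighbours could stand apart in size or direction. Wnt3 was higher by 1.12 on day 14 and its neighbour Wnt9b by 0.13. Wnt10a was higher by 0.50 and its neighbour Wnt6 by 0.29. Wnt3a was higher by 0.18, while its neighbour Wnt9a had a difference of −0.31. Wnt10b differed by 0.09, little more than the robust standard deviation of 0.070 between probe sets. Its neighbour Wnt1, a dim member, differed by 0.00, so this pair is not shown to stand apart.

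**Figure D2:**
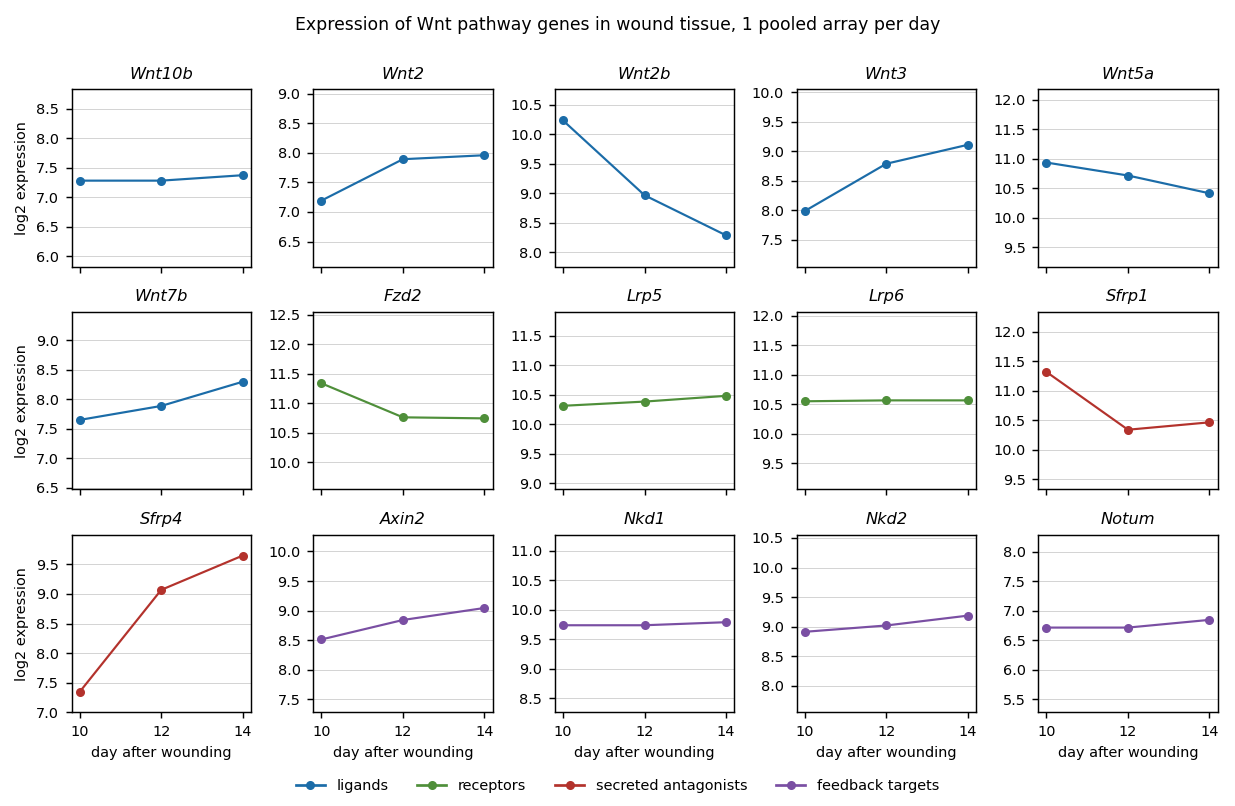
Log2 expression on days 10, 12 and 14 of the 15 members given in full, each point 1 pooled array, with every panel spanning 3 log2 units around the gene's own middle. Sfrp4 and Wnt2b show the steepest lines, 7.34 to 9.65 and 10.23 to 8.28, and those of Lrp6 and Nkd1 are nearly flat.

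R-spondins strengthen Wnt signalling by binding Lgr receptors and keeping Frizzled proteins at the cell surface. The 4 genes differed in direction. Rspo4 was higher on day 14 than on day 10 by 0.39 and Rspo1 by 0.26, whereas Rspo3 had a difference of −0.40, and Rspo2, a dim member, had 1 value on all arrays. None reached 1.5-fold.

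The receptors were evenly split, with 5 of 12 higher, 4 lower, 3 equal and a median of 0.00 on day 14 against day 10. The shares over all named genes were 34.9% higher, 35.6% lower and 29.5% equal. The co-receptor gene Lrp5 was 10.31, 10.38 and 10.48 on days 10, 12 and 14, and Lrp6 was 10.55, 10.57 and 10.57. Neither differed by more than 0.17. Fzd2, a Frizzled gene whose product binds Wnt5a among others, stood at 11.34 first, then at 10.76 and 10.75. It was 1.51-fold lower on day 14, and this was the 1 receptor past 1.5-fold. Under each of the 3 other scalings its difference fell short of 1.5-fold, at −0.58 after centring, −0.56 after cyclic loess and −0.55 after quantile normalization. Fzd10 was higher on day 14 by 0.45 and Fzd6, a Frizzled gene known for hair orientation, by 0.41. Fzd9 was higher by 0.13. Fzd1, Fzd7 and Fzd4 had differences of −0.18, −0.16 and −0.05. Fzd3, Fzd5 and Fzd8 held equal values on all 3 arrays.

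The secreted antagonists held both the member that was higher by the most and the member with the next largest lower difference after Wnt2b. Sfrp proteins carry a Frizzled-like domain that binds Wnt ligands. Sfrp4 read 7.34, 9.07 and 9.65 on days 10, 12 and 14. It was 3.31-fold higher in the first step and 1.50-fold higher in the second, or 4.95-fold higher in all. Sfrp1 was 11.32, 10.34 and 10.46 on the same days. It was 1.97-fold lower on day 12 than on day 10 and 1.81-fold lower on day 14, with its lowest value on day 12. Within 1 protein family the genes thus stood apart in opposite directions. Sfrp2 was −0.11 on day 14 against day 10, while Sfrp5 was 0.15 and the dim member Frzb 0.10.

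Dkk1, Dkk2 and Dkk4 encode antagonists that bind the co-receptors Lrp5 and Lrp6, and Dkk3 is a divergent relative. Dkk3 had a difference of −0.45 on day 14 against day 10, and of −0.48 on day 12 against day 10. Dkk2 was higher by 0.30 and Dkk4 by 0.18. Dkk1, a dim member, stood at 6.22, 6.22 and 6.23, and Wif1, which binds Wnt ligands directly, was dim as well and differed by 0.09. The window before the start of Dkk1, at chr19:30549497-30549746, minus strand, is shown. It was the 1 window among the 35 member windows used with more than 1 match to the Tcf and Lef letters.
Dkk1: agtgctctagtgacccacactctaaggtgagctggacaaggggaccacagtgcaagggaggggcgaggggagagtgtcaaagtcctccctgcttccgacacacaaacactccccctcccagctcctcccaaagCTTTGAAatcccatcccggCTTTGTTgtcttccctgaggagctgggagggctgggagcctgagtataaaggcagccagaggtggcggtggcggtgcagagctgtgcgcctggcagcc
The matches, in capitals, begin 117 and 98 bases before the start. Of the 35 member windows, 4 held a match (11.4%), in Dkk1, Fzd7, Wnt11 and Wnt5b. The share was 14.8% over all windows, where no chromosome was left out. None of these 4 genes differed by 1.5-fold between any of the days.

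Feedback targets are switched on by beta-catenin and limit the pathway. All 4 were above their day 10 value on day 14 (median difference 0.20), but none reached 1.5-fold. They were also higher after centring, quantile normalization and cyclic loess, under which 66.3%, 54.3% and 48.0% of all named genes were higher by any amount, beside 34.9% as deposited. Axin2, a scaffold of the complex that breaks down beta-catenin and a widely used readout of the pathway, read 8.51, 8.84 and 9.04 on days 10, 12 and 14. It was higher on each later day, by 1.26-fold, then 1.15-fold, and 1.45-fold in all. Nkd2, whose product binds Dishevelled, was 8.91, 9.02 and 9.18, and its relative Nkd1 was 9.74, 9.74 and 9.79. Notum, a secreted enzyme that takes the lipid off Wnt proteins, was 6.71, 6.71 and 6.84. Only Axin2 and Nkd2 were higher on day 12, while Nkd1 and Notum were tied between days 10 and 12. On day 14, Nkd1 was higher than on day 10 by 0.05, within the robust standard deviation of 0.070 between probe sets. Notum was higher by 0.13, and its highest value of 6.84 lay near the dim mark of 6.53.

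The window before the Axin2 start in the table, at chr11:108920099-108920348, plus strand, is shown as that of the feedback target that differed by the most.
Axin2: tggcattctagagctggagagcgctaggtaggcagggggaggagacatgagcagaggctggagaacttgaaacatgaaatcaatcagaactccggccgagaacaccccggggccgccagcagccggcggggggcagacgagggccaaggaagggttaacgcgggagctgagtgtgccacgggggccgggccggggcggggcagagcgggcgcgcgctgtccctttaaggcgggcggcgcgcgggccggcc
It held no match to the Tcf and Lef letters and 24 CG pairs. The windows of Nkd1 and Nkd2 held no match either.

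Small differences leaned to the higher side in the second step. On day 14 against day 12, 32 of the 49 members were higher, beside 32.7% of all named genes, 8 were lower, beside 30.8%, and 9 were equal. Among the secreted antagonists 9 of 10 were higher, Dkk2 being the exception. The differences of Dkk1, Dkk2, Fzd2 and Fzd4, of 0.00, −0.03, −0.02 and −0.02, changed sign under at least 1 other scaling. The median over members was 0.07, beside a robust standard deviation of 0.05 between probe sets in that comparison. With a mark of 0.1 log2 units, set after the values were seen, 19 members were higher (background 12.6%) and 4 lower (background 14.4%). The olfactory receptor genes also leaned this way in the second step, with 27.5% higher and 5.52% lower, but under cyclic loess they were split with 46.6% higher and 53.4% lower. Under that scaling 34 members were higher and 15 lower, beside 48.5% of all named genes higher. The lean of the olfactory genes by any amount thus depended on the scaling. At the mark of 0.1 they leaned higher under each scaling, with 5.22% higher and 0.394% lower as deposited. Under cyclic loess these shares were 4.24% and 0.394%. Whether the lean of the members shares a source with theirs was not tested. In the first step the members were even, with 16 higher (background 25.5%), 14 lower (background 34.5%) and 19 equal. Of the 49 members, 13 were higher on each later day and 5 lower on each later day, against 12.6% and 18.1% of all named genes. The 5 include Fzd2 and Fzd4, whose second step changed sign under other scalings.

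**Figure D3:**
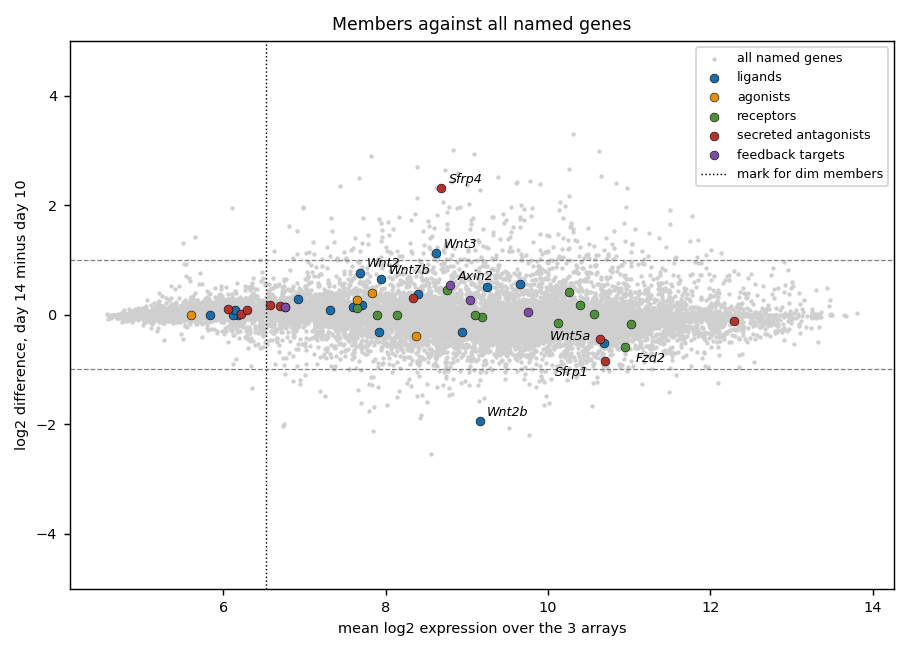
Log2 difference between day 14 and day 10 against the mean log2 expression over the 3 arrays, with all 19938 named genes in grey and the members coloured by role. The dotted line marks 6.53, left of which members lie close to 0. Sfrp4 at 2.31, Wnt3 at 1.12 and Wnt2b at −1.95 stand outside the dashed 2-fold lines.

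Other genes of the pathway were read from lists of secretion factors, further receptors, further antagonists, cytoplasmic and nuclear parts and targets. The machinery inside the cell differed little, as did most named genes. None of the 17 cytoplasmic genes and none of the 13 nuclear factors measured reached 1.5-fold on day 14 against day 10. Of all named genes, 3.11% were higher and 2.98% lower by that much, so few genes of such short lists could be looked for. Both medians were 0.00, as was that over all named genes. Ctnnb1, which encodes beta-catenin, was 12.41 on all 3 arrays, which is a tie and not a precise measurement of no difference. Lef1, a nuclear partner of beta-catenin, was 7.10, 7.13 and 7.13. Among nuclear factors Ctnnbip1, an inhibitor of beta-catenin binding to Tcf, differed by 0.56 and Tcf7l1, a member of the Tcf family that mostly represses, by −0.32. Among cytoplasmic genes Dvl2, a Dishevelled gene, and Btrc, of the ubiquitin ligase that marks beta-catenin for breakdown, differed by −0.12 and −0.23. Of the secretion genes, Porcn, which attaches the lipid to Wnt proteins, was higher by 0.26 and Wls, which carries them to the surface, differed by −0.12.

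Lists of further surface and secreted proteins had members past these sizes. Of 14 further receptors and regulators of receptor turnover, 4 exceeded their day 10 value by 1.5-fold or more on day 14 (background 3.11%) and none was lower by that much (background 2.98%). Lrp4, a receptor that also binds Wnt antagonists, was 2.05-fold higher, Lgr6, an R-spondin receptor of follicle and epidermal stem cells, was 1.84-fold higher, and Lgr5 differed by 0.24. The others past 1.5-fold, named after their values were seen, were Rnf43, a ubiquitin ligase that removes Frizzled proteins and is itself a Wnt target, at 1.81-fold, and Kremen2, a partner of Dkk proteins, at 1.67-fold. Of 9 further antagonists, 2 exceeded their day 10 value by 2-fold or more (background 1.25%) and 2 were below it by as much (background 0.512%). Sostdc1, which blocks Bmp as well as Wnt signals, stood at 2.71-fold of its day 10 value, and Draxin, a secreted axon guidance protein that antagonises Wnt signals, was 2.17-fold lower. Dkkl1, a gene related to the Dkk family, was 2.05-fold higher and Grem1, a Bmp antagonist gene, was 2.04-fold lower, and both were likewise named after their values were seen. Of 14 reported targets, 1 was at least 1.5-fold higher, namely Tnfrsf19, a receptor gene of the tumour necrosis factor family, at 3.90-fold, while Bambi differed by −0.35. Lgr5 and Lef1 also belong to the target list.

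In pooled tissue, fewer cells of a type and less RNA per cell cannot be told apart, and markers of several cell types differed alongside the members. The background for the counts on day 14 against day 10 is 34.9% of all named genes higher and 35.6% lower by any amount. Beside Sfrp4, Wnt3, Wnt2, Wnt7b and Axin2, which were higher on day 14, 7 of 7 measured markers of differentiated epidermis were higher too (median difference from day 10, 0.94). Their mean log2 level was 11.31, 12.26 and 12.47 on days 10, 12 and 14, and Flg2 and Krt77 had the largest ranges, at 6.30-fold and 5.33-fold higher on day 14. The sebaceous markers were higher in 7 of 8, with mean levels of 8.33, 9.66 and 9.43, and with Fa2h and Elovl3 3.86-fold and 3.38-fold higher. Those of hair shaft and inner root sheath were higher in 9 of 10, with mean levels of 7.15, 7.45 and 8.01, and with Krt71 and Gata3 3.08-fold and 3.03-fold higher. The basal epidermis list had 7 of 8 higher and a median of 0.05, although its members Krt15 and Col17a1 were 3.84-fold and 1.57-fold higher. Its 1 lower member, Cdh3, differed by −0.47. Beside Wnt2b, Sfrp1 and Fzd2, which were lower, 8 of 8 markers of myofibroblasts and smooth muscle were lower, with a median of −1.09 and mean levels of 10.87, 9.98 and 9.62. Of them Cnn1 was 5.85-fold and Actg2 4.61-fold lower. The endothelial markers were lower in 8 of 8, with a median of −0.56 and mean levels of 10.89, 10.45 and 10.34, and with Plvap 1.88-fold and Esam 1.63-fold lower. Markers of Schwann cells and nerves were higher on day 14 in 5 of 5, with a median of 0.59, mean levels of 7.93, 8.26 and 8.37, and L1cam and Mbp 1.65-fold and 1.53-fold higher. Macrophage markers were higher in 7 of 7 on day 12 against day 10 (background 25.5%). They were lower in 7 of 7 on day 14 against day 12 (background 30.8%). Their medians in these steps were 0.33 and −0.21 and their mean levels were 11.28, 11.61 and 11.21. In that list Cd14 differed by 0.66 and then −1.37, and Itgam by 0.53 and then −0.66. The fibroblast markers differed by a median of −0.10, with Pdgfrb and Pdgfra at −0.29 and −0.29. The dermal papilla markers were split, with 4 of 8 higher, 4 lower and a median of −0.02. Ncam1 stood at −0.75 and Crabp1 at −0.46, while Alpl had the largest higher difference of the list, at 0.23. The medians were 0.09 for adipocytes, with Lpl and Cebpa at 0.72 and 0.59, and −0.06 for skeletal muscle, with Acta1 and Myh4 at −0.50 and −0.18. No marker is at 0 on this scale. The part of these cell types in the differences of the Wnt genes was not tested.

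**Figure D4:**
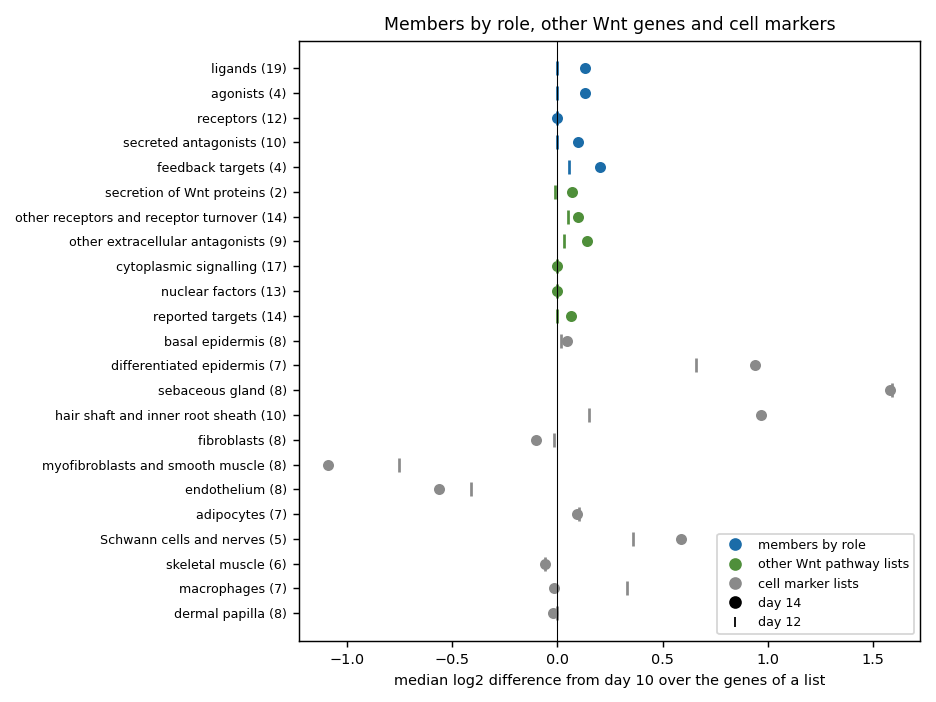
Median log2 difference from day 10 on day 12 (ticks) and day 14 (circles) for members by role, other Wnt pathway lists and cell marker lists, with the number of measured genes in brackets. The medians by role lie between 0.00 and 0.20 on day 14, whereas those of the marker lists run from −1.09 for myofibroblasts and smooth muscle to 1.58 for the sebaceous gland.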

How the data were processed

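Total RNA of pooled wound tissue, 3 mice per day, was hybridised to 1 one-colour array for each of days 10, 12 and 14. From 250 ng of RNA, amplified and biotin-labelled cDNA was made, per the labels' protocols. The authors deposited log2 expression values, 1 for every probe set of an array. The submitters' processing notes name RMA and Partek 6.6 but not what each did, and the log2 scale was taken from the range of the values. The genome build is not given in the sources used here. No scanner output was used, so signal over background is unknown.

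Of 35556 probe sets, 21789 had 1 symbol in the platform annotation, 1621 had several and were left out, and 12146 were not listed. Probe sets were averaged per symbol. Values were used without further scaling or level filter, and days were compared by log2 differences and counts at 2-fold and 1.5-fold. Of the 49 members, 25 passed a level filter of 8.36 used as an alternative, 4 of them only by a later day. The counting step was run on simulated differences of known size, which checks its code only and says nothing on the error of single arrays. Every member is named, and those with a range of at least 1.5-fold, plus Axin2, Nkd1, Nkd2, Notum, Lrp5, Lrp6, Wnt10b, Wnt5a and Wnt3, are given on every day. Of other lists, the 2 genes with the largest range are named, with Lef1, Porcn, Wls, Lgr5 and Ctnnb1. The members, lists and rules were chosen with earlier results of these data known. Python 3.11.15, pandas 2.3.3 and limma 3.58.1 were used.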

Additional observations from a re-analysis of the deposited data

How the results depend on the processing

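Each day had a single array, so no replicate could be left out and no paired analysis was possible because no day has a second sample. The number of arrays limits precision. The counts of members at least 2-fold different, which were 2, 0 and 3 on day 12 against day 10, day 14 against day 12 and day 14 against day 10, were the same under centring, cyclic loess, quantile normalization, the brightest probe set and the inclusion of probe sets with several symbols. The counts were also the same under both level filters, which is no support for them, because Sfrp4 and Wnt3 lay under 8.36 on day 10 and passed only by their later values. At 1.5-fold the counts became 5, 1 and 7. The median over members on day 14 against day 10, 0.092 without a filter, was 0.015 with either level filter, which kept 25 members. Under the level filters, and under the brightest probe set for all members but Wnt4, the differences of single members could not move. The inclusion of probe sets with several symbols left the members' values unchanged, so the member counts under it were fixed as well. Of 885 differences of single members under all the alternatives, these included, 881 moved by no more than the probe-set spread. The other 4 were those of Wnt4 with the brightest probe set, at 0.91 on day 12 and 0.97 on day 14 against day 10, and of Fzd10 and Nkd2 under quantile normalization, at 0.27 and 0.22 on day 14 against day 12. Of 85 values for differences of at least 1.5-fold, 85 kept their sign and 82 stayed past 1.5-fold, the exceptions being Fzd2 under the 3 scalings. Here too the values under the level filters, the brightest probe set and the inclusion of probe sets with several symbols were fixed in advance.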
